A study of Rattus norvegicus with 2 samples.

Results

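The tumour suppressor p53 is a transcription factor that is held low in unstressed cells and accumulates after DNA damage, nucleolar stress or oncogene activity. It binds DNA as a tetramer and switches on genes that stop the cell cycle, repair DNA, adjust metabolism or start cell death, among them genes that shut p53 itself down again. In epidermis it is known for the response of keratinocytes to ultraviolet light, and its relative p63, the lineage factor of stratified epithelium, binds many of the same sites. The genes described here are p53 targets outside the BCL2 family, a list of 35 symbols chosen with earlier results of these data known. The symbols were picked for their place in the pathway, with no threshold on their values. Of these, 28 had a named probe set among the 15037 named genes of the array, and 26 exceeded a background floor of 5.04 log2 units on 1 or both arrays. The floor is the level under which 95% of 1206 chemoreceptor genes, which keratinocytes should not use, had their higher value. Btg2, Sfn, Ercc5, Sesn1, Fdxr, Tnfrsf10b and Eda2r had no named probe set and were not analysed here.

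The siTet2/3 group was 1 culture of newborn rat epidermal keratinocytes transfected with siRNAs against Tet2 and Tet3, enzymes that oxidise methylated cytosine, at 1 µM each. The control group was 1 culture of the same cells, described in the labels as non-treated and titled NC+VC, with NC not spelled out; whether it received transfection reagent or another siRNA is not stated there. Both received vitamin C, which promotes TET activity, for 12 h, starting 24 h after the transfection step, in medium with fetal bovine serum and hydrocortisone, so vitamin C itself was not compared. Each culture gave 1 whole-transcript array, so no difference can be set against a spread between replicates, and "higher" and "lower" speak of the siTet2/3 array relative to the control array only. The comparison asks which p53 targets were higher or lower in the siTet2/3 culture when both cultures had vitamin C. Tet2 and Tet3 had no named probe set, so the knockdown was not analysed here.

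Keratinocyte markers were present, with 7 of 7 measured above the floor on both arrays and a log2 summed level of 18.94 on the siTet2/3 array against 18.82 on the control array. That sum is mostly the basal keratin gene Krt14 (18.70 on the siTet2/3 array, 18.54 on the control array). Within the list Krt15, another basal keratin gene, was 5.59-fold higher (11.26 on the siTet2/3 array, 8.78 on the control array). Of the 7 keratinocyte markers, 3 had differences above 0 and 4 below 0, with a median of -0.13 log2 units. None of 6 fibroblast markers passed the floor on either array. Of the others, Mitf was the 1 of 3 melanocyte markers above it, Cd68 the 1 of 5 immune markers and Tek the 1 of 4 endothelial markers. The log2 summed levels of the fibroblast, melanocyte, immune and endothelial lists were 6.67, 6.04, 6.11 and 9.35 on the siTet2/3 array, against 6.46, 5.96, 6.12 and 9.73 on the control array. The part of other cells in the differences was not tested, and in bulk RNA fewer cells of a type cannot be told apart from less RNA per cell. Levels are log2 signals per probe set, so a level of 1 gene is not set against that of another, and every fold is one of the deposited scale, whose upper end is higher than usual for RMA, the normalisation that the submitters name.

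The p53 targets went both ways and did not move as a group. With 1.5-fold as the limit, 3 of the 26 genes that exceeded the floor were higher on the siTet2/3 array (Sesn3, Tp53inp1 and Polh) and 5 were lower (Steap3, Ccng2, Fas, Cdkn1a and Plk3), while 18 were neither. The 3 higher genes are 11.5% of the 26, and 8.63% of all 8103 named genes above the floor were higher by this limit. The 5 lower genes are 19.2%, against 13.2% of all genes; in either direction the shares were 30.8% and 21.8%. These shares are near the background. The median difference of the 26 genes, siTet2/3 minus control, was 0.05 log2 units, against -0.05 for all 8103 genes, and 14 of the 26 differences were above 0.

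The counts moved with the limit and the scaling. At 2-fold Sesn3 alone was higher, as were 1.81% of all genes, and Steap3 alone was lower, as were 3.05%. Once differences were centred on the median of all genes, 4 members were higher and 3 lower, against 10.4% and 11.1% of all genes, and with a trend on level removed 4 were higher and 4 lower, against 10.2% and 11.2%. Among the 14 members above 8.31 log2 units, the level under which 95% of 1153 negative-control probes had their higher value, 2 were higher and 3 lower, against 6.01% and 11.0% of the 4124 genes above that level. Of the 14, 12 exceeded that level on both arrays, and Steap3, 1 of the 3 lower, did so on the control array only.

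**Figure D1:**
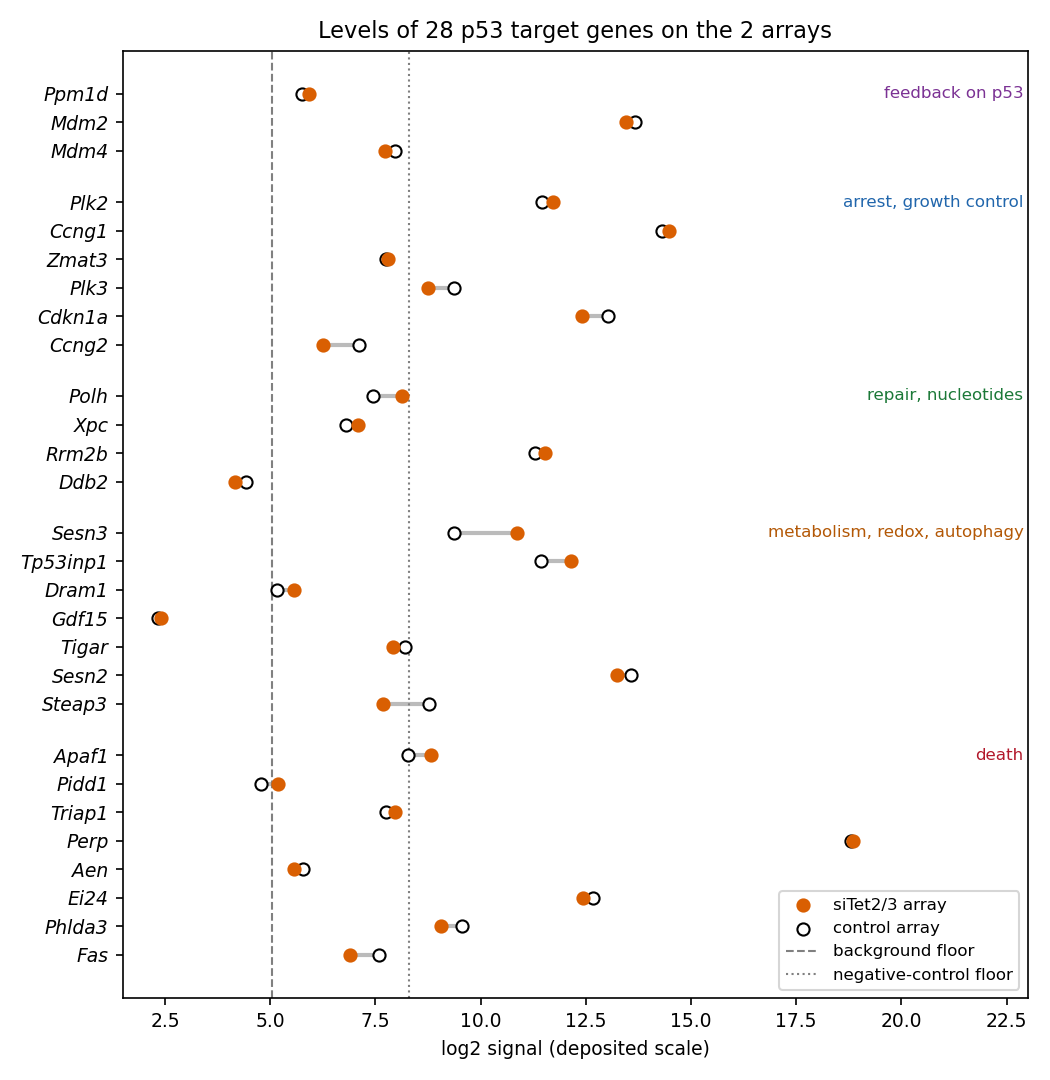
Log2 signal of the 28 measured p53 targets on the siTet2/3 array (filled) and the control array (open), grouped by role and sorted by difference within each role. The dashed line is the background floor at 5.04 and the dotted line an alternative floor at 8.31 log2 units; Sesn3 and Steap3 have the widest gaps, and Ddb2 and Gdf15 lie below the floor on both arrays.

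**Figure D2:**
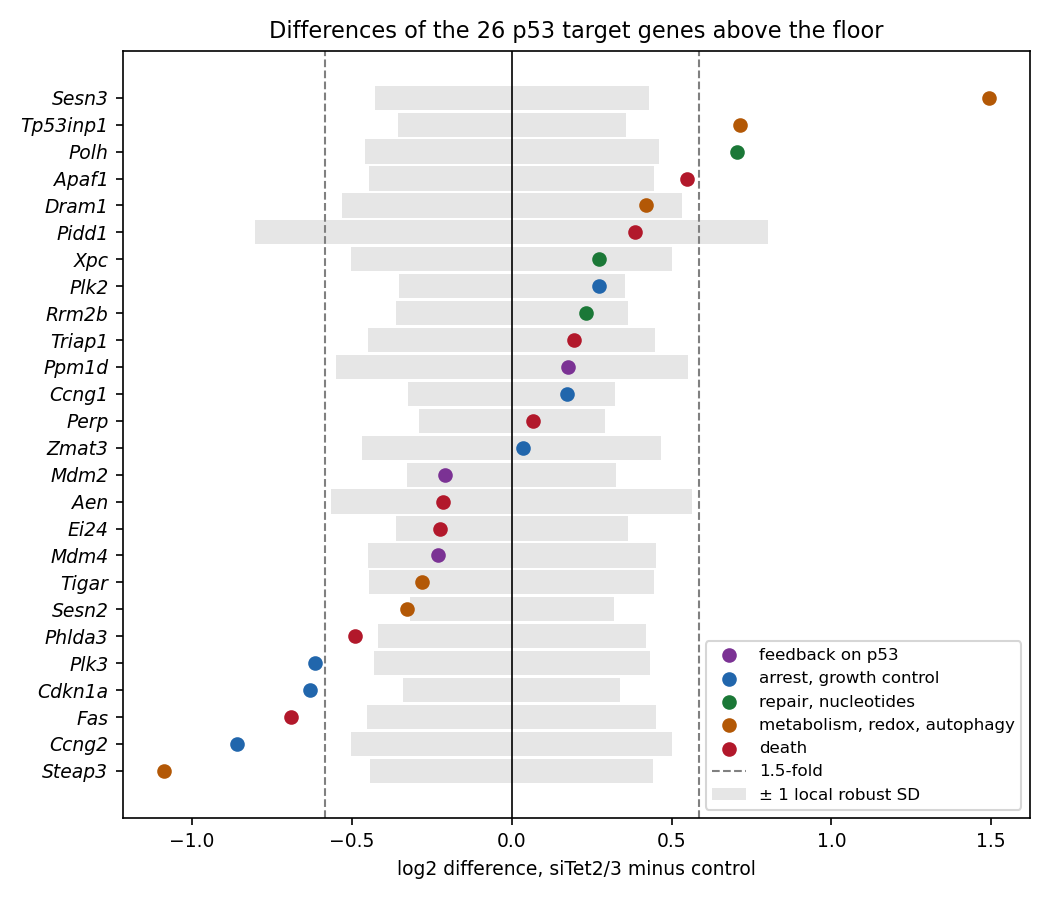
Log2 difference, siTet2/3 minus control, of the 26 p53 targets above the floor, coloured by role. Grey bars span 1 local robust SD of the differences of 500 genes of similar level on either side of 0, and dashed lines mark 1.5-fold; Sesn3 stands furthest out, at 1.49 log2 units.

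As a gauge of ordinary scatter, each difference was set beside the local robust SD, the spread of the differences of the 500 named genes nearest in level. For the 26 genes this spread ran from 0.29 log2 units at the level of Perp to 0.80 at that of Pidd1, with a median of 0.44. It mixes noise with real differences and is no replicate error. Among the p53 targets, Sesn3 differed by 3.48 local SDs, Steap3 by -2.46 and Tp53inp1 by 2.01. The other 23 differed by less than 2 local SDs. Past 3 local SDs Sesn3 was the 1 higher member and 0 were lower, where 0.247% of all genes were higher and 0.568% lower.

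Genes that act back on p53 differed little. Mdm2, the ubiquitin ligase that marks p53 for destruction and is itself a p53 target, read 13.45 log2 units on the siTet2/3 array and 13.66 on the control array, a difference of -0.21. Its relative Mdm4, which binds p53 and blocks its activity, read 7.73 on the siTet2/3 array and 7.96 on the control array (-0.23). The p53 phosphatase gene Ppm1d read 5.92 on the siTet2/3 array and 5.75 on the control array (0.18). Thus 0 of 3 genes in this group passed 1.5-fold, where 21.8% of all genes did in either direction.

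Among arrest and growth control genes, 3 of the 6 above the floor were lower past 1.5-fold and 0 were higher, where 13.2% of all genes were lower and 8.63% higher. After centring 1 of 6 was lower, against 11.1% of all genes, and above 8.31 log2 units 2 of 4 were lower, against 11.0%. Cdkn1a, which encodes the cyclin-dependent kinase inhibitor p21 and is the best known arrest gene under p53, read 12.40 log2 units on the siTet2/3 array and 13.03 on the control array, or 1.55-fold lower. Ccng2, which encodes an atypical cyclin of resting cells and is also a FOXO target, was 1.81-fold lower (6.25 on the siTet2/3 array, 7.11 on the control array), but lay below 8.31 log2 units on both arrays and so was not counted with the negative-control floor. Plk3, a stress-activated polo-like kinase gene, was 1.53-fold lower (8.74 on the siTet2/3 array, 9.36 on the control array). Cdkn1a and Plk3 sat just past the limit and did not pass it after centring on the median of all genes, at -0.58 and -0.56 log2 units. The paralogs of Ccng2 and Plk3 had differences above 0 that did not reach 1.5-fold. Ccng1, a cyclin gene of the Mdm2 feedback loop, read 14.48 log2 units on the siTet2/3 array and 14.31 on the control array (0.17). Plk2, another polo-like kinase gene, read 11.73 on the siTet2/3 array and 11.45 on the control array (0.27). Zmat3, which encodes an RNA-binding zinc finger protein, read 7.79 on the siTet2/3 array and 7.76 on the control array (0.04). The differences of Ccng1 and Ccng2 were thus 1.03 log2 units apart and those of Plk2 and Plk3 0.89 apart, while Mdm2 and Mdm4 were 0.02 apart.

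Because p53 recognises a 10-base consensus that it binds in pairs, the 250 bases before the gene start were searched for 1 copy of it on both strands, in RefSeq sequences of build GRCr8. Of 29 listed genes with 1 promoter entry, 5 held a match (17.2%), against 6.56% of 27457 gene promoters of the same length. The genes were listed because they are p53 targets. Their windows had a median GC content of 64.8%, against 52% over all promoters, so the shares are not like for like. The 5 genes with a match were Cdkn1a, Ccng1, Ei24, Aen and Sesn1. They are shown because they are the members whose promoter window carries the p53 consensus, with the match in capitals, 5′ to 3′ on the strand of the gene. Cdkn1a is given whole (chr20:7150682-7150931, + strand), and the others with 15 bases on each side: Ccng1 (chr10:25685084-25685123, - strand), Ei24 (chr8:44699426-44699465, - strand), Aen (chr1:142224488-142224527, + strand) and Sesn1 (chr20:46948532-46948571, + strand).
Cdkn1a: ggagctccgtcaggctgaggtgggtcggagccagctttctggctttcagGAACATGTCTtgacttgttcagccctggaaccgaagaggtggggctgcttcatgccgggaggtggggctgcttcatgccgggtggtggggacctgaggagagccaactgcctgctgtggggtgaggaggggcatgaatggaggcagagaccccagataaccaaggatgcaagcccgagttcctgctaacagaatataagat
Ccng1: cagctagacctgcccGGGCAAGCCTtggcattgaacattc
Ei24: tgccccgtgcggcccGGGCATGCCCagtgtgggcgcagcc
Aen: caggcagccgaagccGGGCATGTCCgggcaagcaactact
Sesn1: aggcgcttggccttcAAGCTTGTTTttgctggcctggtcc
The match starts 201 bases before the gene start in Cdkn1a, 232 in Ccng1, 79 in Ei24, 30 in Aen and 172 in Sesn1. The 4 of these genes that were measured differed by -0.63 (Cdkn1a), 0.17 (Ccng1), -0.22 (Ei24) and -0.22 log2 units (Aen). Of these 4, Cdkn1a alone passed 1.5-fold, where 21.8% of all genes did in either direction, and it did not pass after centring. A match describes the letters of this window and is not evidence of binding, and many p53 sites lie outside it. Other motifs were counted in the same windows on both strands, again without matching for GC content. GGGCGG, the GC box of CpG-rich promoters, was in 23 of the 29 (79.3%) against 32.4% of all promoters, and TATAAA was in 1 (3.45%) against 13.1%. CCAAT was in 10 (34.5%) against 34.3%, and the AP-1 motif TGANTCA in 3 (10.3%) against 6.36%. GTAAACA, a motif of forkhead factors, was in 2, Mdm2 and Eda2r (6.90%), against 3.25%. None of these letter strings contains another, and a window without a match says nothing about the factor.

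Of the DNA repair genes, Polh was higher past 1.5-fold and the others differed less. Polh, the polymerase that copies past ultraviolet lesions, read 8.14 log2 units on the siTet2/3 array and 7.43 on the control array, or 1.63-fold higher. Both values lie below 8.31 log2 units. With the negative-control floor 1 repair gene was left and 0 were counted, against 6.01% higher and 11.0% lower of all genes above it. Rrm2b, a p53-induced subunit of the enzyme that makes deoxyribonucleotides, read 11.52 on the siTet2/3 array and 11.29 on the control array (0.23). Xpc, which encodes a damage sensor of nucleotide excision repair, read 7.08 on the siTet2/3 array and 6.80 on the control array (0.27). Like Polh, it lay below 8.31 log2 units on both arrays. All 3 repair genes above the floor therefore had differences above 0, and 1 passed 1.5-fold, where 8.63% of all genes were higher and 13.2% lower. Ddb2, which encodes another ultraviolet damage sensor, was below the floor on both arrays, at 4.15 log2 units on the siTet2/3 array and 4.43 on the control array, and no fold is given.

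Metabolic, redox and autophagy genes held the members that differed most in either direction. Sesn3 encodes a sestrin, a stress-induced protein that restrains the growth kinase complex mTORC1, and is a target of FOXO factors as well. It read 10.87 log2 units on the siTet2/3 array and 9.38 on the control array, or 2.81-fold higher. Only 0.617% of the 8103 genes differed by more in either direction, and it was number 21 from the top. Its paralog Sesn2, a sestrin gene that also answers to amino acid and endoplasmic reticulum stress, read 13.24 on the siTet2/3 array and 13.57 on the control array (-0.33). The differences of these paralogs were 1.82 log2 units apart. Steap3, which encodes a ferrireductase that reduces iron released from transferrin in endosomes, was 2.13-fold lower (7.68 on the siTet2/3 array, 8.77 on the control array) and number 159 from the bottom. Tp53inp1, which encodes a stress protein of the nucleus and of autophagosomes, was 1.64-fold higher (12.15 on the siTet2/3 array, 11.44 on the control array). Dram1, a lysosomal membrane protein gene of autophagy, read 5.57 on the siTet2/3 array and 5.15 on the control array (0.42), near the floor. Tigar, which encodes a phosphatase that slows glycolysis, read 7.92 on the siTet2/3 array and 8.20 on the control array (-0.28). The stress cytokine gene Gdf15 was below the floor, at 2.41 on the siTet2/3 array and 2.34 on the control array. Of the 6 genes above the floor, 2 were higher past 1.5-fold, 1 was lower and 3 were neither. Among all genes 8.63% were higher and 13.2% lower by this limit.

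The 250 bases before the start of Sesn3 (chr8:19415177-19415426, + strand) and Steap3 (chr13:33944357-33944606, - strand) are printed because these members differed most, one in each direction, and because TET enzymes act on methylated cytosine, mostly at CG. Every CG is in capitals; Sesn3 holds 27 and Steap3 14, on RefSeq build GRCr8.
Sesn3: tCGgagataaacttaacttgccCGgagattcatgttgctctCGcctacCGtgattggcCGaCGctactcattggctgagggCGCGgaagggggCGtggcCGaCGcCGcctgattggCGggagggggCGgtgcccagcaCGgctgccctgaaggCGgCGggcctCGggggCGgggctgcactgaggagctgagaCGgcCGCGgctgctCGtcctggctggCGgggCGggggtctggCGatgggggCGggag
Steap3: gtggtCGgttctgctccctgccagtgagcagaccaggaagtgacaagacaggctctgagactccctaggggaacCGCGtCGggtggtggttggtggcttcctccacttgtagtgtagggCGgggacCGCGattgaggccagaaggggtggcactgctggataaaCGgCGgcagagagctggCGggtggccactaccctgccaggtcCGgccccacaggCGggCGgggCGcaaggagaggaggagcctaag
DNA methylation was not measured in these files, so the CG positions show where it could occur and not whether it did.

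CpG content of the promoter was set beside the differences of these genes. CpG observed over expected, the number of CG given the number of C and G, had a median of 0.73 over the 29 promoters, from 0.07 in Eda2r to 1.16 in Apaf1, against 0.41 over all 27457 promoters. All promoters include those of genes below the floor. Of 6839 named genes above the floor with a promoter entry, 3665 exceeded 0.75, as did 10 of 23 such members. By that split the members were not richer in CpG than other genes above the floor. Across the 23 members above the floor with a promoter entry, it correlated with the difference at a Pearson r of 0.50 and a Spearman rho of 0.63. Without Pidd1 and Apaf1, the 2 genes furthest from the median CpG content, r was 0.65 and rho 0.76. Pidd1 (0.15, with a difference of 0.39) goes against the pattern, so this rise comes with leaving out a counterexample. Across 6839 named genes above the floor with a promoter entry, r was -0.04 and rho -0.03. Of the 10 members above 0.75, 8 had differences above 0, such as Sesn3 (0.92) and Polh (0.98), while Mdm2 (0.94) and Tigar (0.86) did not. The median over the 10 was 0.27 log2 units. Of the 13 at or below 0.75, 3 had differences above 0, namely Pidd1, Ccng1 (0.62) and Perp (0.71). The others, such as Cdkn1a (0.30), Fas (0.31) and Steap3 (0.55), were below 0, and the median over the 13 was -0.33. All genes above the floor with a promoter entry showed no such contrast. Their median difference was -0.05 above 0.75, -0.08 from 0.5 to 0.75, -0.01 from 0.25 to 0.5 and 0.03 under 0.25. All points come from the same 2 arrays and genes are not independent replicates, so this is a description of these genes, made after their values were seen.

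**Figure D3:**
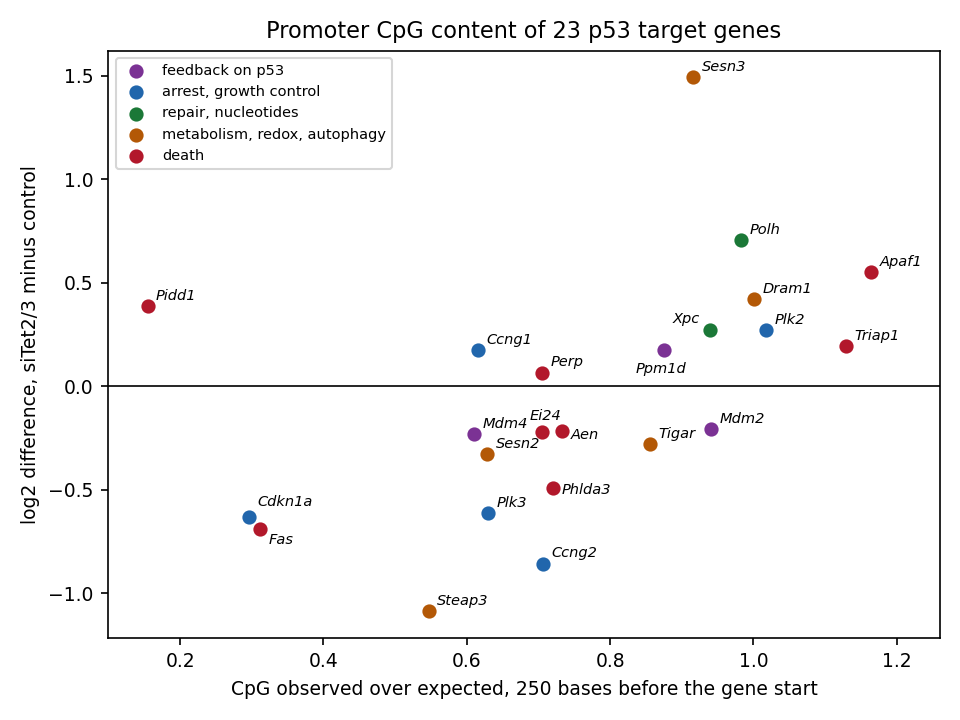
CpG observed over expected in the 250 bases before the gene start (horizontal) against the log2 difference, siTet2/3 minus control (vertical), for the 23 p53 targets above the floor with a promoter entry. Most genes above 0.75 lie above 0 and most others below it, with Pidd1 an exception at the far left; over all 6839 genes r was -0.04.

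Cell death genes were split evenly, with 4 of 8 differences above 0. Fas alone of the 8 passed 1.5-fold, where 21.8% of all genes did in either direction. Fas, the death receptor for Fas ligand, read 6.90 log2 units on the siTet2/3 array and 7.59 on the control array, or 1.62-fold lower. Both values lie below 8.31 log2 units, so with the negative-control floor 0 of 4 death genes were counted, against 6.01% higher and 11.0% lower of all genes above it. Apaf1, which encodes the scaffold of the apoptosome that activates caspases, read 8.82 on the siTet2/3 array and 8.27 on the control array. It was 1.46-fold higher, just short of the limit, and passed it at 1.52-fold after centring. Phlda3, which encodes an inhibitor of Akt at the membrane, read 9.05 on the siTet2/3 array and 9.55 on the control array (-0.49). Perp, a tetraspan gene that p63 also controls in skin and whose product sits in desmosomes, read 18.86 on the siTet2/3 array and 18.79 on the control array (0.07). The deposited scale ends at 19.93, so a difference could be compressed there. Ei24, which encodes an endoplasmic reticulum protein of autophagy, read 12.44 on the siTet2/3 array and 12.66 on the control array. The nuclease gene Aen read 5.56 on the siTet2/3 array and 5.77 on the control array. Triap1, which encodes an inhibitor of apoptosis in mitochondria, read 7.96 on the siTet2/3 array and 7.76 on the control array (0.19). Pidd1, a scaffold gene for activation of caspase-2, read 5.18 on the siTet2/3 array and 4.79 on the control array, below the floor, so that it was at least 1.10-fold higher.

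**Figure D4:**
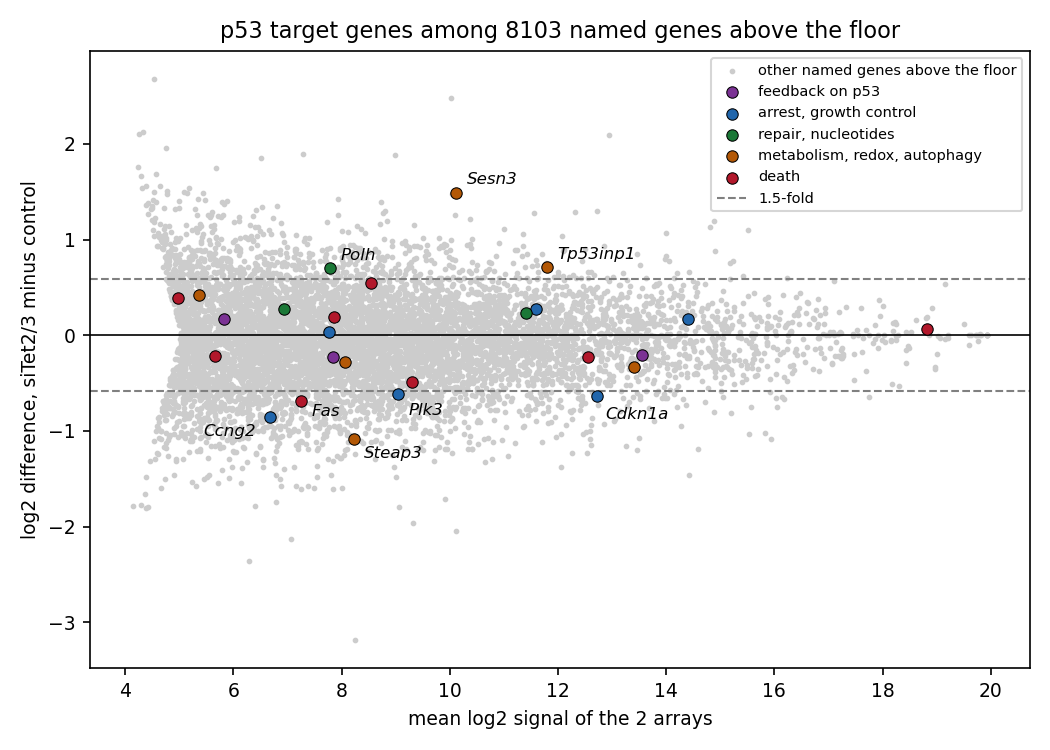
Mean log2 signal of both arrays (horizontal) against the log2 difference, siTet2/3 minus control (vertical), for the 8103 named genes above the floor (grey) and the 26 p53 targets (coloured by role). Dashed lines mark 1.5-fold; of the p53 targets Sesn3 lies at the edge of the grey cloud, while the 7 others past the limit lie within it.

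Genes upstream of p53 went both ways. Of 15 regulators above the floor, 1 was higher past 1.5-fold, 1 was lower and 13 were neither, with a median difference of 0.02 log2 units. These are 6.67% each way, below the 8.63% higher and 13.2% lower of all genes. Kat5, which encodes the acetyltransferase that modifies p53 and ATM, was 1.93-fold higher (7.83 on the siTet2/3 array, 6.88 on the control array). Rchy1, which encodes a ubiquitin ligase for p53, was 1.67-fold lower (6.39 on the siTet2/3 array, 7.13 on the control array). Both lay below 8.31 log2 units on both arrays.

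Of 16 other p53 targets above the floor, 1 was higher, 1 lower and 14 neither, with a median of -0.07. These are 6.25% each way, against 8.63% higher and 13.2% lower of all genes. Thbs1, the gene of an angiogenesis inhibitor in the matrix, was 2.18-fold higher (15.37 on the siTet2/3 array, 14.25 on the control array). The receptor kinase gene Epha2 was 1.56-fold lower (10.57 on the siTet2/3 array, 11.21 on the control array). In the BCL2 family, Bax, the pore-forming death effector gene, was 1.95-fold lower (7.99 on the siTet2/3 array, 8.95 on the control array). Its siTet2/3 value lies below 8.31 log2 units. The p53-induced death activators Bbc3 and Pmaip1 differed by 0.37 and -0.08 log2 units. Of the 4 p53 targets listed from that family, 0 were higher past 1.5-fold and Bax alone was lower, against the same shares of all genes.

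Cell cycle genes that p53 represses through p21 form the other arm of the pathway. Of 13 above the floor, 1 was higher, 2 were lower and 10 were neither, with a median of -0.16 log2 units, and 9 of 13 differences were below 0. The shares of 7.69% higher and 15.4% lower are near the 8.63% and 13.2% of all genes. Mybl2, a transcription factor gene of proliferating cells, was 2.27-fold lower (9.82 on the siTet2/3 array, 11.00 on the control array). Ccna2, the gene of cyclin A, was 1.52-fold lower (11.19 on the siTet2/3 array, 11.79 on the control array), and fell short of the limit, at 1.47-fold, both with centring and with the trend removed, which left 1 lower gene in this list. Lmnb1, the lamin gene that falls in senescent cells, was 1.85-fold higher (12.56 on the siTet2/3 array, 11.67 on the control array).

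**Figure D5:**
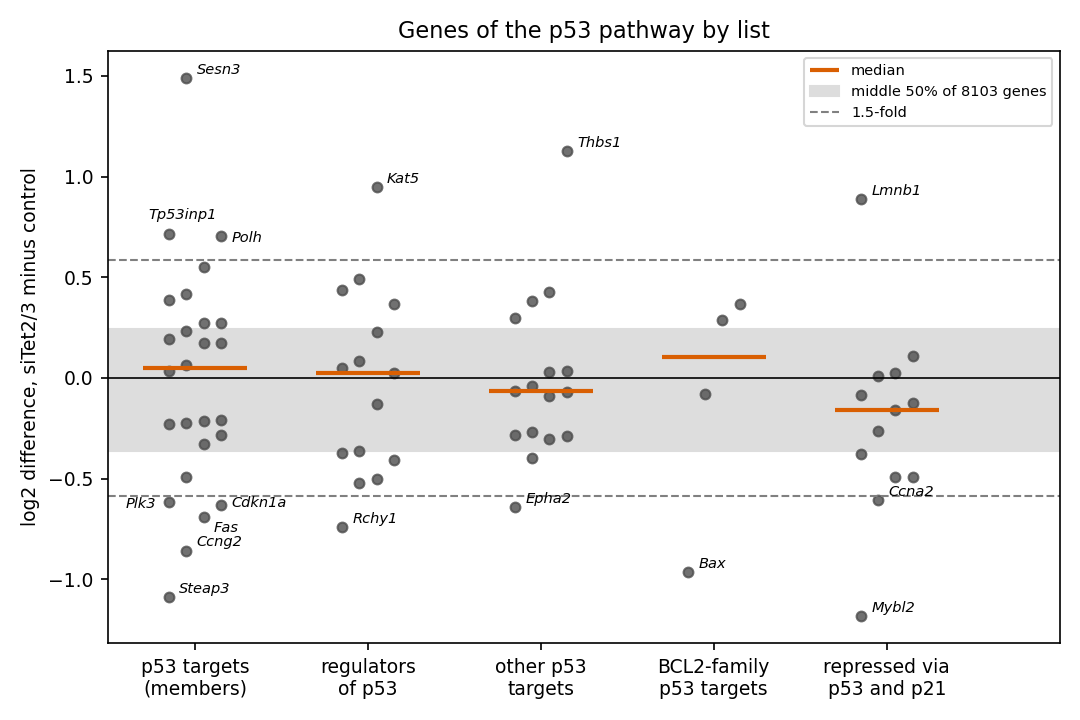
Log2 difference, siTet2/3 minus control, of every gene above the floor in the p53 target list and in 4 further lists of the pathway, with the list median as a bar. The grey band holds the middle 50% of 8103 genes, from -0.36 to 0.24 log2 units, and all 5 medians lie inside it; dashed lines mark 1.5-fold and genes past it are named.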

How the data were processed

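Total RNA was labelled with biotin and hybridised to 1 array per culture, per the labels' protocols. The authors deposited log2 signals per probe set; the submitters' processing notes name RMA and the Transcriptome Analysis Console, with versions, settings and genome build not given in the sources used here. Values reach 19.93, higher than plain RMA usually gives, so a further change of scale is possible and folds are those of the deposited scale. The sorted columns differed by at most 0.151 log2 units, so differences are relative to the bulk of genes and a shift of total RNA cannot show. Platform annotation named 15049 of 24834 rows, for 15037 genes; probes of a gene were averaged, and no member had more than 1. Every column belonged to a sample of the series.

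Per gene, the control value was subtracted from the siTet2/3 value on the deposited log2 scale. Having 1 array per group, the design allowed no test. A gene was counted when the brighter array exceeded the floor and the difference reached 1.5-fold; a fold with 1 value below the floor is a bound against the floor. Trends were fitted with limma 3.58.1 (loess, span 0.3), other steps with pandas 2.3.3. The counting was tested on simulated data with less scatter and larger changes than the members showed. That checks the counting steps and not how reliable a 1.5-fold count is here. Members and lists were chosen with earlier results of these data known. All members are named; other lists give up to 3 genes each way past 1.5-fold, and Bax, Bbc3 and Pmaip1 always.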

Additional observations from a re-analysis of the deposited data

How the results depend on the processing

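Each of the 26 members above the floor kept the sign of its difference after centring and after removing a trend on level. Taking the brightest probe per gene could change no member, because none had more than 1 probe. Raising values to the floor could change Pidd1 alone, which kept its sign. The count of 3 higher and 5 lower members became 1 and 1 with a 2-fold limit (Sesn3 and Steap3). It became 1 and 0 with a limit of 3 local robust SDs, chosen after seeing the data, which 0.815% of all genes passed. Centring left 3 lower members, without Cdkn1a and Plk3, and removal of the trend 4, without Plk3; both added Apaf1 to the higher ones. A floor from negative-control probes, at 8.31 log2 units, kept 14 members, of which 3 were lower (Cdkn1a, Plk3 and Steap3) and 2 higher. Steap3 exceeded that floor on the control array only (7.68 on the siTet2/3 array, 8.77 on the control array). It was counted there by its full difference and not by a bound against that floor. The member median of 0.05 was -0.072 with the negative-control floor, -0.086 with a floor 1 log2 unit higher and 0.10 after centring, so its sign was not settled. The median of all genes at these settings was -0.050, -0.058 and, by construction, 0. With 1 array per group, leaving out a replicate was not possible, and the number of arrays limits every value. No paired analysis was possible because each group had 1 sample.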
